A study of Mus musculus with 4 samples.

Results

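Interscapular brown adipose tissue (iBAT) and epididymal white adipose tissue (eWAT) of wild-type (WT) mice were compared gene by gene on 1 array each, that is on 2 of the 4 arrays of the series. The other arrays held the same tissues from mice lacking ASK1, the kinase encoded by Map3k5, and were set beside the WT pair where they bear on a value. All mice were C57BL/6J males aged 10 weeks under normal conditions, and the Cy3-labelled RNA on an array was a pool from 3 of them. Since each tissue of each genotype was 1 pool on 1 array, there was no replicate, so that nothing is known of how far mice differed, and WT iBAT and WT eWAT were compared without a test. Of the 55681 probes on the array, 34186 gave a signal well above background in at least 1 WT tissue, as marked by the scanner software. Not all of them matched a gene, since 24461 of the 55681 probes did not, and those that did gave 16342 genes. Of these genes 14327 were measured in both tissues, 309 were well above background in iBAT only, 1700 in eWAT only, and 6 had probes of both kinds.

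Brown adipocytes are packed with mitochondria and burn fatty acids to make heat. Uncoupling protein 1 (Ucp1) lets protons back across the inner mitochondrial membrane without making ATP, and noradrenaline from sympathetic nerves switches the process on through β-adrenoceptors and cAMP. White adipocytes of the epididymal pad store triglyceride in one large droplet and release hormones such as leptin. The pad is a visceral depot that is covered by mesothelium, and both tissues also hold vessels, nerves, fibroblasts and immune cells.

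Values are given as the scanner signal in each tissue and as a log2 difference, iBAT minus eWAT, so that 1 is 2-fold and 3 is 8-fold higher in iBAT. The signal is as the scanner software wrote it. The eWAT array was brighter as a whole, with a 75th percentile of 673 against 356 for iBAT, and each array's 75th percentile was subtracted on the log2 scale before the difference was taken. A gene dim in 1 tissue was given only a bound ("at least"), the bright level over the dim probe's own level or over the lowest level that counted as well above background on the dim array, whichever was higher. Signals of different genes come from different probes and were not compared with each other. The technical spread was small: between repeated spots of a probe the SD of the log2 difference had a median of 0.084 over 273 probes, and a 95th percentile of 0.268. This covers the array and not the mice. In bulk tissue, fewer cells of a type cannot be told apart from less RNA per cell.

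The labels were first checked against markers. Of 36 genes listed as brown adipocyte markers, 30 of the 32 measured in both tissues were at least 2-fold higher in iBAT and 0 were at least 2-fold higher in eWAT, against 16.4% and 13.4% of all genes measured. All 15 measured members of a list of 20 white adipocyte markers were at least 2-fold higher in eWAT. Transcripts of genes listed as markers of other tissues were also present, and which cells they came from was not tested. The 20 skeletal muscle genes listed gave a summed signal of 429940 in WT iBAT and 9909 in WT eWAT, and the ASK1-deficient pools gave 443546 and 6255, so the iBAT pools of both genotypes carried muscle transcripts. The 28 hepatocyte genes with a value, of 30 listed, gave 1814 in WT iBAT, 47724 in WT eWAT, 3246 in ASK1-deficient iBAT and 3280 in ASK1-deficient eWAT, so liver transcripts were bright in 1 of the 4 pools, that of WT eWAT. The part of these transcripts in the differences described here was not tested, and the ASK1-deficient pair is given beside them where it bears on the point. Map3k5, averaged over its 2 probes, gave 696 in iBAT and 941 in eWAT of WT mice, and 355 and 403 in the deficient mice, where it stayed well above background. Whether its probes lie in the part of the gene that was deleted was not checked here, so they do not settle the genotype labels. Within the WT pair Map3k5 differed by 0.48 and the related kinase gene Map3k6 by -0.50, both under 2-fold, and Map3k15 by 1.08.

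Of the 14327 genes measured in both tissues, 2348 (16.4%) were at least 2-fold higher in iBAT and 1915 (13.4%) were at least 2-fold higher in eWAT. At least 8-fold differences were seen for 232 genes (1.62%) towards iBAT and 278 (1.94%) towards eWAT, and at least 32-fold differences for 67 and 24. The median of all genes was 0.12. How many genes fell on either side of 2-fold depended on the scaling. After loess normalization, which turned the median of all genes to -0.07, the counts were 1720 towards iBAT and 2280 towards eWAT, so that the share of these genes higher in iBAT went from 55.1% to 43.0%, and with no scaling, which moved the median by -0.92, they were 730 and 5666. Of the genes dim in 1 tissue, all 309 seen in iBAT only had a bound of at least 2-fold (100.0%), against 565 of the 1700 seen in eWAT only (33.2%). Signals counted as well above background went down to 19.7 in iBAT and 18.9 in eWAT, which is a higher scaled level on the iBAT array, so the bounds of the arrays are not on the same footing and these shares are not compared with each other.

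**Figure D1:**
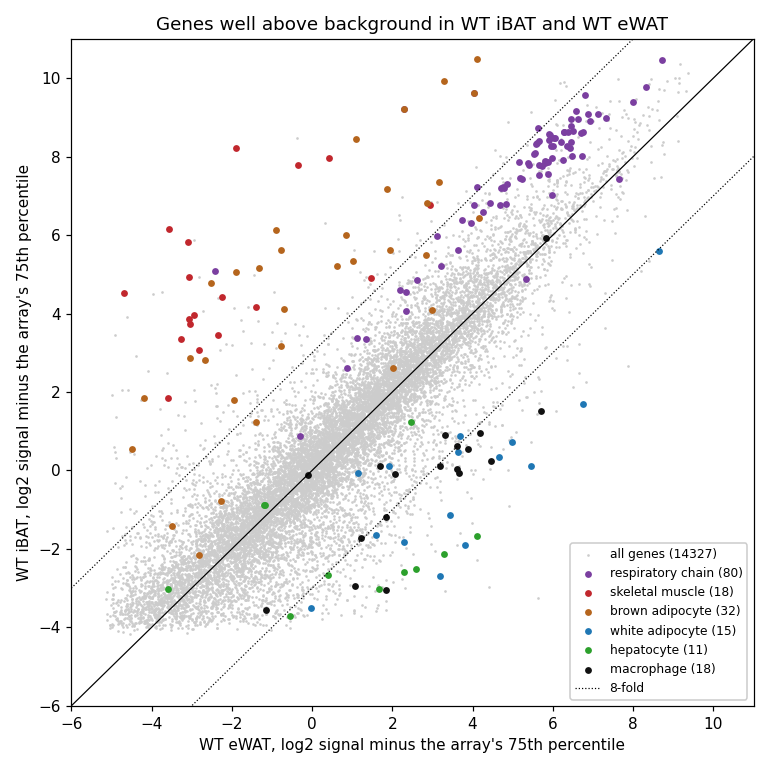
Scaled log2 level of each of 14327 genes in WT eWAT (horizontal axis) and WT iBAT (vertical axis), 1 array each, with 6 gene lists in colour. The solid line marks equal levels and the dotted lines 8-fold, and the medians over the genes plotted are 6.83 for muscle, 4.92 for brown adipocyte, -3.16 for hepatocyte and -4.12 for white adipocyte genes.

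The brown adipocyte genes had a median log2 difference of 4.92, and 24 of the 32 measured were at least 8-fold higher in iBAT, against 1.62% of all genes. Ucp1, whose single probe lies at chr8:85821788-85821847 of the mouse assembly mm9, gave a signal of 343275 in iBAT and 6603 in eWAT, a log2 difference of 6.62 or 98.4-fold. Its eWAT signal was far above background in WT mice but lower in the deficient ones, where it was 252 beside 263161 in iBAT. The Cidea probe, for a lipid droplet protein of brown adipocytes, gave 514381 and 11532, a log2 difference of 6.40. Dio2, which encodes the deiodinase that activates thyroid hormone, gave 9820.2 and 117, a log2 difference of 7.32. Elovl3, an elongase of very long chain fatty acids, gave 1276 and 36.6, a log2 difference of 6.04. All 4 were thus bright in iBAT, and Ucp1 and Cidea kept a clear signal in eWAT.

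Regulators of the brown programme were also on the list. The coactivators Ppargc1a and Ppargc1b had log2 differences of 3.76 and 3.94, the nuclear receptors Ppara, Esrrg and Esrra 4.60, 5.04 and 2.27, and Prdm16, which directs brown adipocyte fate, 2.64. Ebf2, another fate factor, stayed under 2-fold with signals of 2180.2 and 2713, a log2 difference of 0.60. Zic1 was well above background in both tissues, at 80.2 and 94.9, with a log2 difference of 0.68. The homeobox gene Lhx8 was well above background in iBAT only, at 248 against 4.7, at least 24.8-fold higher. Among channels and signalling proteins, Kcnk3 (a potassium channel) had 4.32, P2rx5 (an ATP receptor) 5.14, Otop1 (a proton channel) 5.93 over probes that ranged from 4.35 to 7.52, and S100b 6.39. Genes of lipid handling on the list had 7.02 for the thioesterase gene Acot11, 6.47 for the fatty acid transporter gene Slc27a2 and 5.48 for glycerol kinase (Gk). Of the remaining members, Epsti1 (4 and 25.5) and Fgf21 (9.24 and 29.7) were well above background in eWAT only, and Bmp8b in neither tissue.

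Several of the listed brown adipocyte genes are also genes of muscle. Muscle transcripts had the highest log2 differences among genes measured in both tissues. Of the 15 genes with the highest log2 differences, from 10.12 to 7.5, 7 were on the muscle list. The others were Myh8, Tcap, Myom2, Myl2, Myoz1, Mb and Myl3, which also encode muscle proteins, and Cox6a2. Myh4, a fast myosin heavy chain, gave 106463 in iBAT and 182 in eWAT, a log2 difference of 10.12. It was followed by Tnnt3 (9.72), Ckm (9.21), Pvalb (8.92), Myh8 (8.84), Tcap (8.81), Myom2 (8.53) and Myl2 (8.48), which encode a troponin, creatine kinase, parvalbumin, another myosin and further sarcomere proteins. All 18 measured muscle genes were at least 8-fold higher in iBAT, against 1.62% of all genes, with a median of 6.83. Mylpf and Casq1 were well above background in iBAT only, as were 309 of the 16342 genes. The same list had a median of 7.28 in the ASK1-deficient pair. Of the 10 genes with the largest bounds towards iBAT, Ckmt2, the mitochondrial creatine kinase of muscle, led with at least 610-fold, at 6102 against 12.3. Myot, Tnni1, Casq1, Actn2, 9130214F15Rik, Rpl3l, Art1, Tbx5 and Fitm1 followed, the last at least 80-fold higher. The calcium pump gene Atp2a1, at 6.77, and its regulator Sln, at 4.59, moved with these genes, and so did Ryr1 at 4.32. Fabp3 (7.34), Cpt1b (6.96) and Pdk4 (5.30) are used by muscle as well as by brown adipocytes, and which cells gave their signal was not tested.

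The respiratory chain differed almost as a block. Of 80 subunit genes measured, 78 were at least 2-fold higher in iBAT and 0 at least 2-fold higher in eWAT, against 16.4% and 13.4% of all genes, and the median was 2.26. By complex, the median was 2.26 for 37 genes of complex I (NADH dehydrogenase), 2.54 for 4 of complex II (succinate dehydrogenase), 2.53 for 9 of complex III (cytochrome c reductase), 2.38 for 14 of complex IV (cytochrome c oxidase) and 1.93 for 15 of ATP synthase, and cytochrome c (Cycs) itself had 2.41. All 37 complex I genes lay between 1.54 and 2.88. Uqcrc1, a core subunit of complex III, gave 52872 and 11569, a log2 difference of 3.11, and cytochrome c1 (Cyc1) gave 151000.0 and 33316, a log2 difference of 3.1. The largest differences were those of Cox6a2 (7.5), Cox7a1 (6.94) and Cox8b (5.59), the isoforms of cytochrome c oxidase that heart, muscle and brown fat use, whereas the general isoforms Cox6a1, Cox7a2 and Cox8a had 1.74, 2.02 and 1.39. Without these 3 isoforms, 75 of 77 genes were at least 2-fold higher in iBAT, with a median of 2.24.

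The exceptions in the chain were both genes for subunit c, the proton-carrying ring of ATP synthase. Atp5g1 gave 10507 in iBAT and 27015 in eWAT, a log2 difference of -0.44. Atp5g3 gave 61602 and 135360.0, a log2 difference of -0.22. The third gene of the subunit, Atp5g2, had 1.29, and in the ASK1-deficient pair Atp5g1, Atp5g2 and Atp5g3 had -0.39, 1.06 and -0.43. ATP synthase outside subunit c ranged up to 2.44, for Atp5j2.

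The promoters of the 80 listed genes of the chain, both exceptions included, were read for motifs, 250 bases before to 50 after the start, as given by RefSeq on GRCm38.p6. A promoter sequence was found for 66 of them. The cAMP response element TGACGTCA, bound by factors of the CREB and ATF family, was found in 5 of the 66 (7.58%) and in 3.14% of the 11249 promoters of genes measured in both tissues. The palindrome of NRF1, a regulator of respiratory genes, spelled GCGCA followed directly by TGCGC, was found in 5 (7.58%) and in 1.85%. The ERR element TCAAGGTCA was found in 2 (3.03%), Sdhd and the exception Atp5g3, and in 0.293%. Both strands were searched, and a match is a description of the letters and not of a bound site. Among genes at least 8-fold higher in iBAT the shares were 3.39%, 1.69% and 1.13% of 177 promoters, and among those at least 8-fold higher in eWAT 0.5%, 1.0% and 0% of 200. The PU.1 element GAGGAAGT, bound by a factor of macrophages, was in 6.5% of the latter, in 1.69% of the former and in 2.99% of all measured genes. The PPAR element (AGGTCA, any base, AGGTCA) was in 0 of the promoters of either set, and the EBF element (TCCC, 2 bases of any kind, GGGA) in 1.13% of the iBAT set, 2.0% of the eWAT set and 1.08% of all measured genes.

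The 250 bases before the start are shown for Dio2, with the cAMP response element in capitals, for the complex I gene Ndufa11, which holds both that element and the NRF1 palindrome, for Atp5k of ATP synthase, with the NRF1 palindrome, and for Nnat, a gene far higher in eWAT that holds the same palindrome. They lie at chr12:90739039-90739288 (minus strand), chr17:56717512-56717761 (plus strand), chr5:108434400-108434649 (minus strand) and chr2:157559828-157560077 (plus strand) of GRCm38.p6, and each is written from 5′ to 3′ along its gene.
Dio2: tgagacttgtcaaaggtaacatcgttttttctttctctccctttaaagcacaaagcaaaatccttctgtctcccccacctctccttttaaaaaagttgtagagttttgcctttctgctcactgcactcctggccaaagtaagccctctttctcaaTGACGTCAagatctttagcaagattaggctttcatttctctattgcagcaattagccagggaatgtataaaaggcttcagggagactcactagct
Ndufa11: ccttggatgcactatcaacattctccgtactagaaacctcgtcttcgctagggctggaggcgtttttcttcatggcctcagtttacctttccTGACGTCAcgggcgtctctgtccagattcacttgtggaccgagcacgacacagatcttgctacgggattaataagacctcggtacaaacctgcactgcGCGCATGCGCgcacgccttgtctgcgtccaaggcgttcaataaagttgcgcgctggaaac
Atp5k: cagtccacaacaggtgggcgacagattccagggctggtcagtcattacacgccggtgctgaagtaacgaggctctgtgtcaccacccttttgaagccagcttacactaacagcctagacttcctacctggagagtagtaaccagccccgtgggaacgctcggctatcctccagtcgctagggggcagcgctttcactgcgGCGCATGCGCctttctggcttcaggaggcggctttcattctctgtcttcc
Nnat: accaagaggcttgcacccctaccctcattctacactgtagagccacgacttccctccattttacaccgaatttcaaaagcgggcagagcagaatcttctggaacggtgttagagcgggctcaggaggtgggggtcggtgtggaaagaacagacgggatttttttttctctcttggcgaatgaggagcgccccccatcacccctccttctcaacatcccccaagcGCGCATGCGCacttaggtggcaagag
In these windows the cAMP response element starts 95 bases before the start of Dio2 and 158 before that of Ndufa11, and the NRF1 palindrome 60 bases before Ndufa11, 50 before Atp5k and 26 before Nnat. Ndufa11 had a log2 difference of 2.0 and Atp5k of 2.17, whereas Nnat had -5.34, so the palindrome stands in promoters of genes that differ in both directions.

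Mitochondrial fuel use followed the chain. Of 26 genes of fatty acid oxidation 18 were at least 2-fold higher in iBAT and 1 in eWAT, against 16.4% and 13.4% of all genes, with a median of 2.38. The long chain acyl-CoA dehydrogenase genes Acadvl and Acadl had 3.39 and 3.72, the trifunctional protein genes Hadha and Hadhb 3.38 and 3.68, and the carnitine carrier gene Slc25a20 3.57. The genes for carnitine palmitoyltransferase 1, the entry step, went opposite ways. Cpt1b gave 11796 in iBAT and 179.5 in eWAT, while Cpt1a gave 122 and 1344, a log2 difference of -2.55, and it was the 1 gene of the list higher in eWAT. The 7 peroxisomal genes, such as Ehhadh (0.98), all lay between 0.22 and 0.98 and so under 2-fold, beside 18 of the other 19 genes at or above it.

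Of 24 genes of the citric acid cycle and pyruvate oxidation, 21 were at least 2-fold higher in iBAT (against 16.4% of all genes) and 1 in eWAT (13.4%), with a median of 2.28. Sucla2, the ATP-forming succinyl-CoA synthetase subunit, gave 166532 and 19764, a log2 difference of 4.0, against 1.47 for its GTP-forming partner Suclg2. Idh3a (isocitrate dehydrogenase) had 3.33. The pyruvate dehydrogenase kinase genes, which shut off glucose oxidation, differed by isoform, from 5.30 for Pdk4 and 2.60 for Pdk2 to -2.58 for Pdk3. Pyruvate carboxylase (Pcx) had -0.04. Of 78 genes of the mitochondrial ribosome, 57 were at least 2-fold higher in iBAT (against 16.4% of all genes) and 0 in eWAT (13.4%), with a median of 1.26 and the highest values for Mrps36 (2.97) and Mrpl34 (2.86). In the ASK1-deficient pair 32 of the list passed 2-fold towards iBAT, where 12.3% of all genes did, and with no scaling 8 did.

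Genes of fatty acid synthesis differed less. Of 23 measured, 10 were at least 2-fold higher in iBAT (against 16.4% of all genes) and 1 in eWAT (13.4%), with a median of 0.91, which was -0.01 with no scaling and between 0.49 and 0.94 under the other scalings. Elovl3 and Elovl6 (3.43), both elongases, led the list, followed by Acacb (2.62), Acly (1.62), Agpat2 (1.59), Acss2 (1.52) and Fasn (1.51), whereas the desaturase gene Fads1 had -2.14. In the ASK1-deficient pair 2 genes of the list were at least 2-fold higher in iBAT (against 12.3% of all genes) and 3 in eWAT (12.6%), and the median was 0.21, with -0.62 for Fasn and 0.26 for Acly. Of 23 genes of general adipocyte function 5 were at least 2-fold higher in iBAT and 2 in eWAT, shares not far from the 16.4% and 13.4% of all genes. Their median of 0.11 changed sign with quantile normalization (-0.22), loess (-0.18), no scaling (-0.81) and the percentile over detected probes only (-0.02), and was -0.28 in the ASK1-deficient pair. Cebpb (2.57), Acsl1 (1.76) and the insulin-responsive glucose transporter gene Slc2a4 (1.52) were higher in iBAT, Adrb3 (-1.83) and the lipid droplet gene Plin4 (-1.22) were higher in eWAT, and the adiponectin gene Adipoq (-0.69), Pparg (0.60) and Fabp4 (0.73) were under 2-fold.

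**Figure D2:**
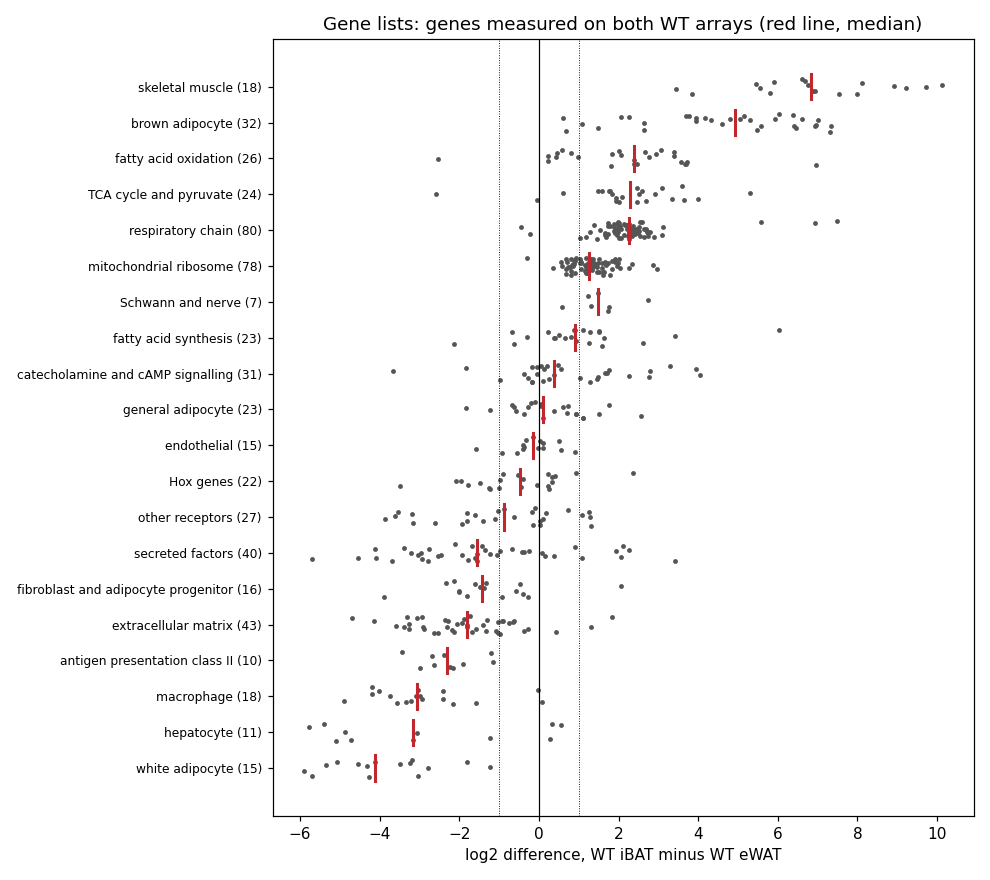
Log2 difference, WT iBAT minus WT eWAT, of each gene measured on both arrays (grey points) in 20 gene lists, with the number of genes in brackets. The red line is the median of a list and the dotted lines mark 2-fold. Medians run from 6.83 for skeletal muscle to -4.12 for white adipocyte genes.

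Catecholamine signalling differed by receptor and isoform. Of 31 measured genes 13 were at least 2-fold higher in iBAT and 2 in eWAT, against 16.4% and 13.4% of all genes, and the median was 0.38. With no scaling the 13 became 6 and the median -0.54. The β3-adrenoceptor gene Adrb3 gave 6286 in iBAT and 42256 in eWAT, a log2 difference of -1.83. Adrb1 went the other way with 687 and 272, a log2 difference of 2.26. Among α-adrenoceptors Adra1a, which couples to calcium, gave 429.8 and 53.1, a log2 difference of 3.94, while Adra2a, which lowers cAMP, was well above background in eWAT only and at least 8.9-fold higher there. So Adrb3 and Adra2a were higher in eWAT, and Adrb1 and Adra1a in iBAT. Downstream, the stimulatory G protein gene Gnas had 3.30, adenylyl cyclases Adcy3 and Adcy5 2.80 and -3.67, the phosphodiesterase gene Pde4d 4.04 and the mitochondrial anchor protein gene Akap1 2.75. On the route from cAMP to Ucp1, the protein kinase A subunit genes Prkaca and Prkar2b had 1.02 and 1.77, the kinase genes Map2k3, Map2k6 and Mapk14 (p38α) 0.20, 1.29 and 0.04, and the transcription factor gene Atf2 1.49.

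Of 27 other receptor genes measured, 13 were at least 2-fold higher in eWAT and 4 in iBAT, against 13.4% and 16.4% of all genes, so the count towards iBAT was about that of all genes. The oxytocin receptor gene Oxtr gave 101 in iBAT and 2805 in eWAT, a log2 difference of -3.87, Tshr (thyrotropin receptor) had -3.61, Ffar2 (short chain fatty acid receptor) -3.55, Npr3 (the natriuretic peptide clearance receptor) -3.18 and Ghr (growth hormone receptor) -1.94. Toward iBAT the leptin receptor gene Lepr had 1.29 from 1 of its 4 probes, and -0.81 when the dim probes were included, and Ffar4 had 1.30 but -0.04 in the ASK1-deficient pair. The genes of natriuretic signalling thus differed in the clearance receptor, while the signalling receptor gene Npr1 had 0.74.

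The white adipocyte genes had a median of -4.12, and 12 of the 15 measured were at least 8-fold higher in eWAT, against 1.94% of all genes. Leptin (Lep) gave 162 in iBAT and 7232 in eWAT, a log2 difference of -4.56, and -4.42 in the ASK1-deficient pair. Mest, an imprinted gene tied to adipocyte size, gave 55.2 and 6187, a log2 difference of -5.89. Neuronatin (Nnat), also imprinted, gave 385 and 29390.3, and the γ-synuclein gene Sncg 1145 and 72489, log2 differences of -5.34 and -5.06. All of these were several times dimmer in iBAT in both genotypes. Slc7a10, an amino acid transporter of white adipocytes, had -4.26, Psat1 of serine synthesis -4.33 and resistin (Retn) -3.04.

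Secreted factors stood mostly on the same side. Of 40 measured, 25 were at least 2-fold higher in eWAT and 6 in iBAT, against 13.4% and 16.4% of all genes, with a median of -1.54, so the count towards iBAT was near that of all genes. Beside leptin and resistin the eWAT side held angiotensinogen (Agt), at 95.1 and 9382 and a log2 difference of -5.70, the activin subunit gene Inhbb (-4.12), the chemokine gene Ccl2 (-4.10), Il33 (-3.68), Fgf10 (-3.40) and the retinol carrier gene Rbp4 (-2.11). Agt and Rbp4 are also liver genes, and with the ASK1-deficient pair, where the summed hepatocyte signal was 3246 in iBAT and 3280 in eWAT, they had -5.73 and -3.15. The 6 higher in iBAT were Pm20d1 (3.42), which makes N-acyl amino acids, Vegfa (2.27), Nampt (2.10), Dlk1 (2.07), Angptl8 (1.94) and Nrg4 (1.09). Adiponectin and adipsin (Cfd), secreted by both kinds of adipocyte, had -0.69 and 0.37.

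Of the 15 genes with the lowest log2 differences, 7 were on a list, 3 of them white adipocyte genes. Slpi, a secreted protease inhibitor, gave 37.6 in iBAT and 33344 in eWAT, a log2 difference of -8.87 and -8.76 in the ASK1-deficient pair. The oestrogen sulfotransferase gene Sult1e1 gave 45.4 and 14290.1, a log2 difference of -7.38. Others were D430019H16Rik (-6.39), the Wnt agonist gene Rspo1 (-6.39) and the enkephalin gene Penk (-5.83). Lbp (-5.50), which carries lipopolysaccharide, 2010016I18Rik (-5.39), Ear2 (-5.31), Fcna (-5.31) and Serpina3n (-5.29) differed in the same direction in both pairs, with -4.62, -4.86, -4.69, -5.46 and -5.09 in the ASK1-deficient one. In that pair Serpina1c (-5.78 in the WT pair) had -0.02, and Mup20 (-5.40) stood on the other side with 2.84. Ear2, Serpina and Mup genes belong to families of near-identical copies, so their probes may read relatives too.

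Genes that record where a depot lies along and across the body differed in both directions. Of 37 positional transcription factor genes 15 were measured in both tissues, 2 of them at least 2-fold higher in iBAT and 6 in eWAT, against 16.4% and 13.4% of all genes. A further 6 were well above background in iBAT only and 6 in eWAT only, beside 309 and 1700 of the 16342 genes. Tbx5, a factor of the heart and forelimb field, gave 800.1 in iBAT and 10.1 in eWAT, at least 80-fold higher, and Tbx15 236 and 4.26, at least 23.6-fold. Lhx8, Pax7 and Irx5 were among the others seen in iBAT only, Pax7 and Irx5 at signals of 28.2 and 24.9 near the background. On the eWAT side Wt1 gave 4.42 and 4138, at least 111-fold higher, and Bnc1, Tcf21 and Foxf1 at least 6.91-, 5.33- and 2.61-fold, while Gata6 had -3.32. Wt1 and Bnc1 also mark mesothelium, whose other markers were bright in eWAT.

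Hox genes are switched on in turn from neck to tail. Of 39 listed, 22 were measured in both tissues, 8 of them at least 2-fold higher in eWAT and 1 in iBAT, against 13.4% and 16.4% of all genes. The 8 became 13 with no scaling and 5 with ASK1-deficient eWAT in place of WT eWAT. Of the rest, 3 were well above background in eWAT only and 14 in neither. Hoxa4 gave 236 in iBAT and 87.5 in eWAT, a log2 difference of 2.35. Hoxa5, the next gene, had 0.92 and Hoxa7 -1.48. In the Hoxc cluster Hoxc4 and Hoxc5 had -0.46 and 0.22, Hoxc6 -1.27 and Hoxc8 -3.49, while Hoxc9 gave 4.97 against 2739 and was at least 73.5-fold higher in eWAT. Hoxb5 and Hoxb7 had -2.08 and -1.96. Genes of numbers 10 to 13 were not well above background in either tissue.

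**Figure D3:**
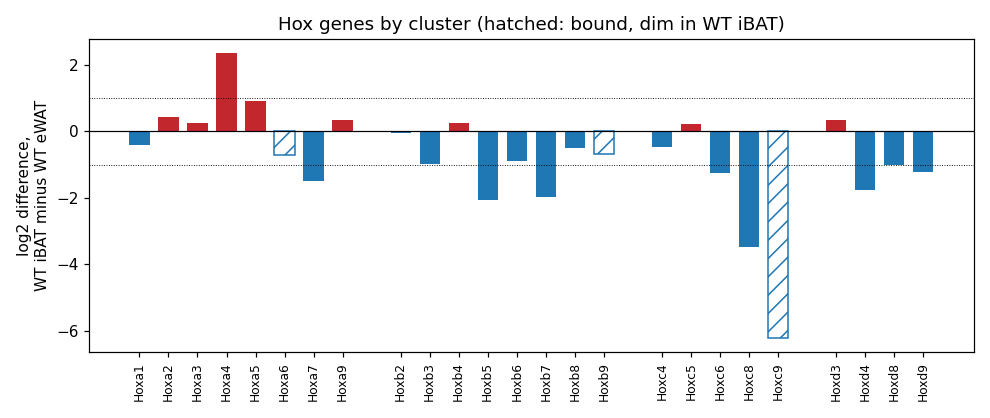
Log2 difference, WT iBAT minus WT eWAT, of the Hox genes well above background in at least 1 tissue, ordered by cluster and number. Filled bars are measured on both arrays and hatched bars are bounds for genes dim in iBAT, so that the true difference is at least as large, as for Hoxc9 with the longest bar.

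Markers of other cell types that the tissues could hold were read next. Of 14 mesothelial genes 3 were measured in both tissues (Rspo1 -6.39, Krt18 -5.19, Lrrn4 -3.58). All 3 were at least 2-fold higher in eWAT, against 13.4% of all genes. The other 11 were well above background in eWAT only, as were 1700 of the 16342 genes, of which 33.2% had a bound of at least 2-fold. Msln gave 5.46 in iBAT and 10222 in eWAT, at least 274-fold higher, and Upk3b and Muc16 at least 89.2- and 88.6-fold. The summed signal of the list was 265 in WT iBAT, 45599 in WT eWAT, 354 in ASK1-deficient iBAT and 36464 in ASK1-deficient eWAT. Of the other bounds among the 10 largest towards eWAT, Nkain4, Krt19 and Wt1 are on the same list. Epididymal duct genes, by contrast, were not well above background in either tissue for 21 of 29, against 5878 of all 22220 genes. Sult1e1 is 1 of the list, however, and Defb42 had 5.20 towards iBAT.

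Macrophage genes were lower in iBAT. Of 18 measured 16 were at least 2-fold higher in eWAT, against 13.4% of all genes, with a median of -3.06, and Cd163 and Msr1 were well above background in eWAT only. The macrophage gene Adgre1 gave 157 in iBAT and 2427 in eWAT, a log2 difference of -3.03, Lyz2 had -3.74, Lgals3 -4.20 and Clec10a -4.20. Mgl2 (0.08) and Itgam (-0.01, over probes from -1.79 to 1.79) were the exceptions. The 10 measured genes of antigen presentation by class II molecules were all at least 2-fold higher in eWAT, again against 13.4%, with a median of -2.32, such as H2-Ab1 (-2.24) and Cd74 (-2.15). In the ASK1-deficient pair the medians of the macrophage and class II lists were -2.42 and -1.64. Of 12 lymphocyte genes measured, 4 were at least 2-fold higher in eWAT and 1 (Cd4, 1.14) in iBAT, against 13.4% and 16.4% of all genes.

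Of 16 fibroblast and adipocyte progenitor genes 10 were at least 2-fold higher in eWAT (against 13.4% of all genes) and 1 (Dlk1) in iBAT (16.4%), with -2.14 for Pdgfra, -2.33 for Cd34 and -3.89 for Dpp4, and a median of -1.44. Of 43 extracellular matrix genes 32 were at least 2-fold higher in eWAT (against 13.4% of all genes) and 2 in iBAT (16.4%), with a median of -1.81. Fibronectin (Fn1) gave 1996 in iBAT and 67170.3 in eWAT, a log2 difference of -4.15, fibromodulin (Fmod) had -4.70 and the fibrillar collagens Col1a1 and Col3a1 -1.02 and -1.41, while Col12a1 (1.85) and Mmp3 (1.32) were higher in iBAT. Of 15 endothelial genes 14 were under 2-fold, against 10064 of all 14327 genes measured, and the exception was Vwf (-1.59). The median of the endothelial genes was -0.15, and -1.07 with no scaling. The 2 lymphatic endothelial genes measured, Lyve1 and Pdpn, which are also found on macrophages or mesothelium, had -4.90 and -4.51. Nerve and Schwann cell genes stood on the iBAT side, with 6 of 7 measured at least 2-fold higher (against 16.4% of all genes), among them tyrosine hydroxylase (Th, 1.74), the enzyme of catecholamine synthesis, Ngfr (1.76) and Ncmap (2.74). With no scaling 1 of these nerve genes passed 2-fold.

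The hepatocyte genes differed one way in the WT pair and the other way in the ASK1-deficient pair. In the WT pair 8 of 11 measured were at least 2-fold higher in eWAT (against 13.4% of all genes), with a median of -3.16. A further 17 were well above background in eWAT only, as were 1700 of the 16342 genes. Albumin (Alb) gave 7.5 in WT iBAT and 3234 in WT eWAT, at least 86.8-fold higher, but 115 and 158 in the ASK1-deficient tissues. The fetuin gene Ahsg gave 5.02 and 2934 in the WT and 107.5 and 57.8 in the deficient tissues. In the ASK1-deficient pair the median of the 11 genes was 1.04. There 6 were at least 2-fold higher in iBAT (against 12.3% of all genes) and 1 in eWAT (12.6%). The 9 Mup genes measured, which encode urinary proteins made in liver, lay between -5.40 and -3.95 in the WT pair and between 1.95 and 3.24 in the ASK1-deficient pair. The largest bound of all, that of the proline transporter gene Slc6a7, rests on a single spot, which read 155826 in WT eWAT, 4.71 in WT iBAT, 11.3 in ASK1-deficient iBAT and 8.37 in ASK1-deficient eWAT.

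The ASK1-deficient pair shares no array with the WT pair, so it shows how far the tissue difference recurred in other pools, with the genotype differing as well. Of the genes at least 8-fold higher in WT iBAT, 208 were measured in both deficient tissues and all 208 were at least 2-fold higher in iBAT there. Of those at least 8-fold higher in WT eWAT, 262 of 276 (94.9%) were at least 2-fold higher in eWAT there and 11 were at least 2-fold higher in iBAT. For the genes at least 2-fold apart in the WT pair, 1535 of 2258 (68.0%) towards iBAT and 1465 of 1900 (77.1%) towards eWAT were at least 2-fold apart the same way. Of all 14606 genes measured in the deficient pair, 12.3% were at least 2-fold higher in iBAT and 12.6% in eWAT. Over 14147 genes the absolute gap between the pairs' log2 differences had a median of 0.23 and a 95th percentile of 0.84. The SD of the signed gap, divided by the square root of 2, was 0.33. Ucp1 and Fabp3 differed more in the deficient pair, at 10.80 and 10.24, and Dio2 less, at 5.97.

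**Figure D4:**
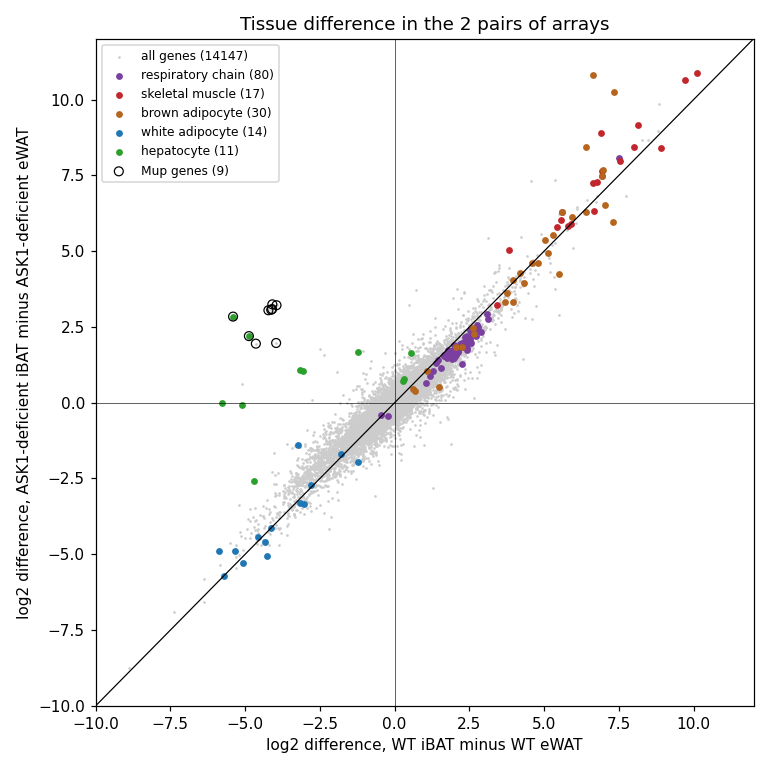
Log2 difference between iBAT and eWAT of each of 14147 genes in the WT pair (horizontal axis) and the ASK1-deficient pair (vertical axis), with 5 lists in colour and the 9 Mup genes circled. The solid line marks equal differences, and the Mup genes lie below 0 in the WT pair and above 0 in the deficient pair.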

How the data were processed

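Total RNA of iBAT and eWAT was amplified, labelled with Cy3 and hybridized to Agilent whole mouse genome arrays, 4 in all on 1 slide. Per the labels, each array held RNA pooled from 3 mice. The authors deposited the output of Agilent Feature Extraction, whose processed signal, a linear intensity, is corrected for background and not scaled between arrays. They also deposited a table of the series, a signal on a linear scale that equals the processed signal of each array divided by 1 constant that sets its median to 1, so its scaling and direction are known.

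From the intensities, control spots and outlier spots were left out, log2 values were averaged over the spots of a probe, and each array's 75th percentile was taken off. A gene's difference is the mean over those of its probes that were well above background in both tissues. Of 34844 gene names, 22292 were matched to the RefSeq table by accession, symbol or unique synonym, giving 22221 genes. The deposited probe positions are on mm9, and exons were not assigned because no genome of that build was used. Promoters are RefSeq sequences on GRCm38.p6. Of 4139 genes with at least 2 probes, 554 had probes over 1 log2 unit apart.

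With 1 array for each tissue there was no test, and genes at least 2-fold or 8-fold apart were counted. Genes were named by rule: the 15 highest, the 15 lowest, the 10 largest bounds on each side, list members, ASK genes and the 10 genes with the largest gap among those opposite in the pairs. Some members of the lists are counted but not reported here by name. The members, gene lists, motifs and rules were chosen with earlier results of these data known. The 28 lists were the brown, white and general adipocyte, respiratory chain, fatty acid oxidation and synthesis, citric acid cycle, creatine and calcium cycling, catecholamine, other receptor, secreted factor, positional factor, Hox, macrophage, class II, lymphocyte, endothelial, lymphatic, progenitor, mesothelial, epididymis, hepatocyte, muscle, erythrocyte, nerve, matrix, ubiquitous and mitochondrial ribosome genes. Their number of arrays limits the precision of all values. The alternatives were normexp background correction (offset 50), quantile and loess normalization, no scaling, other percentiles and centring, the series table, other filters, probe rules and folds, all gene names, the other pools, and limma with tissue and genotype over the 4 arrays, Benjamini-Hochberg adjusted. The steps were tested on simulated data. limma 3.58.1 was run in R 4.3.3, and the other steps in Python 3.11.15 with pandas 2.3.3, numpy 2.4.6 and matplotlib 3.10.9.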

Additional observations from a re-analysis of the deposited data

Results flagged for a closer look

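For 18 genes the difference between iBAT and eWAT was at least 2-fold in opposite directions in the WT and the ASK1-deficient pair. The gap between the pairs was not tested, since each pool is 1 array. Of these genes 16 were higher in eWAT in the WT pair. The 9 Mup genes had log2 differences in the WT pair of -5.40 (Mup20), -4.87 (Mup3), -4.64 (Mup5), -4.22 (Mup17), -4.13 (Mup9), -4.10 (Mup4), -4.09 (Mup18), -3.96 (Mup2) and -3.95 (Mup19), against 2.84, 2.20, 1.95, 3.05, 3.07, 3.09, 3.24, 1.97 and 3.21 in the deficient pair. Their copies are nearly identical, so these are not 9 independent readings.

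Of the other genes on that side, Hpx had -3.16 and 1.09, Serpinc1 -3.07 and 1.04, Cyp2d26 -2.50 and 1.79, Gm7298 -2.37 and 1.58, Fbp1 -1.94 and 1.03, Apoa2 -1.24 and 1.68, and Azgp1 -1.06 and 1.69, in the WT and the deficient pair respectively. Hpx, Serpinc1, Apoa2, Mup3 and Mup20 are on the hepatocyte list, whose genes in eWAT summed to a signal of 47724 in the WT and 3280 in the deficient mice, and its part in these values was not tested. The Apoa2 probes differed, from -2.47 to -0.01.

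The remaining genes were higher in iBAT in the WT pair. Ivns1abp, which encodes an actin-binding protein, had 1.27 and -2.80, with signals of 1752 in WT iBAT, 1371 in WT eWAT, 3165 in deficient iBAT and 37614 in deficient eWAT. The proteoglycan gene Ncan had 1.88 and -1.36, with signals of 208, 106.9, 33.9 and 149 in the same order.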

How the results depend on the processing

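Each tissue of a genotype has 1 array and the labels give no replicate numbers, so no replicates could be paired or left out. Counts that stayed within 1.5 times of the reported ones are not listed. Genes at least 2-fold higher in WT iBAT and WT eWAT numbered 2348 and 1915, but 730 and 5666 with no scaling, 6309 and 2995 with no filter on dim probes, 4093 and 3058 at 1.5-fold and 660 and 781 at 4-fold. The limma fit with genotype as a block, which compares the tissues within genotype over the 4 arrays and 14146 genes, called 4359 higher in iBAT and 3481 in eWAT at an adjusted p under 0.05, with 1 residual degree of freedom, assuming the same tissue difference in both genotypes. At least 8-fold differences numbered 232 and 278, but 121 and 730 with no scaling and 421 and 555 with no filter, and 156 towards eWAT with normexp. Of genes called higher, 55.1% were higher in iBAT, or 47.1% where the percentile was taken over detected probes, which moved the median of all genes by -0.13, 43.0% with loess, 11.4% with no scaling and 67.8% with no filter.

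List counts that moved with no scaling were 8 of the mitochondrial ribosome, 3 of fatty acid synthesis, 6 of catecholamine signalling and 1 of the nerve genes towards iBAT, and 13 Hox genes towards eWAT. With no filter they were 10 nerve genes and 23 hepatocyte genes. In the ASK1-deficient pair 32 mitochondrial ribosome genes, 2 fatty acid synthesis genes and 1 hepatocyte gene passed 2-fold in the reported direction. The alternatives that swap 1 pool were chosen after seeing the data. With ASK1-deficient iBAT in place of WT iBAT the counts were 36 mitochondrial ribosome, 3 fatty acid synthesis and 17 hepatocyte genes, and with ASK1-deficient eWAT in place of WT eWAT they were 3 hepatocyte and 5 Hox genes. The hepatocyte median changed sign, from -3.16 to 0.91 in the deficient pair, over the genes of the list measured in that pair, and 0.79 with deficient eWAT alone. The cause of these shifts was not tested. Lepr changed sign, to -0.81, with no filter. Of 450 named genes at least 2-fold apart, 319 stayed so the same way under every alternative processing of the WT pair. The number was 384 when no scaling is left aside. Alternatives in which a gene had no value were passed over. The other pools, all gene names, other folds and limma were not part of these counts.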

Other observations

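Lists not described so far gave the following values. Of 10 measured genes of creatine and calcium cycling 7 were at least 2-fold higher in WT iBAT and 2, Gamt (-1.73) and Gatm (-1.63) of creatine synthesis, in WT eWAT, against 16.4% and 13.4% of all genes, with 2.61 for the calcium channel gene Itpr2, 1.91 for Atp2a2 and 1.69 for Ckmt1. The 4 erythrocyte genes measured were all under 2-fold, as were 10064 of all 14327 genes measured, and had a median of 0.28. Of 18 genes often taken as ubiquitous 4 were at least 2-fold higher in iBAT and 0 in eWAT, against 16.4% and 13.4% of all genes. The 4 were Pgk1 (2.72), Tfrc (2.59), Sdha (2.07) and Gapdh (1.76), while Rps18 (0.04), Tbp (0.06) and Polr2a (0.21) were close to 0. The median of this list was 0.29, -0.20 with quantile normalization, -0.21 with loess and -0.63 with no scaling.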
